A study of Mus musculus with 2 samples.

Results

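The promoters of 10 imprinted genes outside the Igf2, Dlk1 and Cdkn1c domains were described in newborn mice, in the calf muscle gastrocnemius, from DNase-seq. The method maps accessible chromatin by sequencing the places where the enzyme DNase I cuts DNA. The genes were Peg3, Mest, Plagl1, Peg10, Sgce, Grb10, Snrpn, Ndn, Impact and Gnas. They were taken by name, from a total of 21951 protein-coding genes in the GENCODE M21 annotation, and every peak whose centre lay within 50 kb of any of their annotated transcript starts was kept. This gave 139 of the 94295 peaks of replicate 1 and 120 of the 123291 peaks of replicate 2. The study had 1 group of 2 libraries, biological replicates 1 and 2, each from 4 day old males of B6CASTF1/J, a hybrid made by crossing C57BL/6J with CAST/EiJ. The animals were untreated as far as the labels say. Each label speaks of 3 males, and both name the same donor entry with separate tissue samples, so the spread between the libraries may be partly technical. A single group allows no contrast, so each value below is a level, given with its spread over both libraries.

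Imprinted genes are expressed mainly from a single parental copy. The other copy carries DNA methylation laid down in the egg or sperm, most often at a CpG-rich promoter, and the zinc finger protein ZFP57 is known to keep it after fertilisation by binding methylated TGCCGC letters. Peg3, Mest, Plagl1, Peg10, Sgce, Snrpn, Ndn and Impact are known as paternally expressed genes. Grb10 is maternally expressed in most mouse tissues and paternally expressed in neurons from other promoters. Gnas has promoters of each kind. The deposited lists hold no allele information, so a promoter that is open on 1 copy in every cell, on both copies in some cells, or weakly in all cells cannot be told apart in them.

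Sequences of 3 kinds carry the results below and are shown first, read on build GRCm38, which shares its coordinates with mm10, the build of the peak lists. The first set is the run of YY1 letters (AANATGGC, searched on both strands) in the first intron of Peg3. It was chosen because it lies under the strongest peak of the gene and further peaks of that intron. YY1 is a zinc finger factor known to bind repeated sites in this intron. All 12 matches in the 3683 bp intron are given with 10 bases on each side, with the letters in capitals, 5′ to 3′ on the plus strand, which is opposite to the direction of Peg3. Those whose letters touched a footprint in both libraries are named as protected.
chr7:6729579-6729606, protected: tccaccctccAAGATGGCgccaactggg
chr7:6729473-6729500, protected: cggtcatttcAAGATGGCgccaagcggg
chr7:6728870-6728897, protected: ttggccaggaAAGATGGCgccaggatgg
chr7:6728729-6728756: tcagccagcaAAGATGGCgtcagggtag
chr7:6728441-6728468, protected: attgctggcaAAGATGGCgccaaattgg
chr7:6728392-6728419: cctgtcattcAAGATGGCgtctgcacca
chr7:6728253-6728280: gctgtcaatcAAAATGGCaccttcagtg
chr7:6727954-6727981, protected: aacgtcagcaAAGATGGCgtcaggtggg
chr7:6727924-6727951: gctgtcattcAAGATGGCtactgcacca
chr7:6727835-6727862: atgacaagtaAAGATGGCgcccaggtgg
chr7:6727413-6727440: gtggccaacaAAGATGGCgccagaggga
chr7:6727291-6727318: gtggccaacaAAGATGGCgccaatgaag

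The second set is the sequence before 4 promoters from the RefSeq promoter table (GRCm38.p6), the 250 bases that end just before the RefSeq start, on the strand of the gene. They were chosen because they lie outside annotated exons and cover promoters from strong to weak. Capitals mark bases that lay in a footprint, a short stretch protected from cutting, in both libraries.
Mest, chr6:30737800-30738049, plus strand: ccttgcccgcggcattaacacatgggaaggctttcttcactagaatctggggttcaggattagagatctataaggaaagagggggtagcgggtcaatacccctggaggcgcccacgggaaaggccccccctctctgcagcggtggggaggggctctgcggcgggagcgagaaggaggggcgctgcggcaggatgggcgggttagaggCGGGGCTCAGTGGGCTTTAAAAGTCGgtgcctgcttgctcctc
Grb10, chr11:12037421-12037670, minus strand: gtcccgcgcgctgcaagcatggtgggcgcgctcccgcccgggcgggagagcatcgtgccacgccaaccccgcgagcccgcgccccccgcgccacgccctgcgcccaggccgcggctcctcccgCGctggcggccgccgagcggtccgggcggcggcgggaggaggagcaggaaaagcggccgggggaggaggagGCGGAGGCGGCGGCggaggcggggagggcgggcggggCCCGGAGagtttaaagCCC
Gnas, NESP55 start, chr2:174284070-174284319, plus strand: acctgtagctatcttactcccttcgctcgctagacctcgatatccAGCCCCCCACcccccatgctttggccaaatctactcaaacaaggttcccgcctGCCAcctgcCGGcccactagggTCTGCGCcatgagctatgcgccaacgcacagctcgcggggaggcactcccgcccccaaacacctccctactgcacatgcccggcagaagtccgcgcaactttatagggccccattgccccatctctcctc
Snrpn, chr7:60005200-60005449, minus strand: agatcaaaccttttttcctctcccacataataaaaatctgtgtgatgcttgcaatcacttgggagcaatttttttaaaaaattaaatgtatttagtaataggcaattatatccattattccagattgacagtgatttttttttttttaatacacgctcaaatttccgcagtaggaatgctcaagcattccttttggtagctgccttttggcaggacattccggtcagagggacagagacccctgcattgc

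The third set is the single NRF1 match of the Ndn promoter peak and the 3 CTCF matches in shared peaks within the 50 kb windows. Sequence outside the shared peaks was not searched for these motifs. Each match is given with 10 bases on each side and the match in capitals, on the strand of the motif. NRF1 is an activator of CpG-rich promoters, and CTCF is a boundary factor known for its role at imprinted domains.
CTCF near Ndn, motif at chr7:62375844-62375855, minus strand: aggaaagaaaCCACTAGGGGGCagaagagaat
CTCF near Ndn, motif at chr7:62382603-62382614, minus strand: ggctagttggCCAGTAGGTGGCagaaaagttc
NRF1 near Ndn, motif at chr7:62348255-62348262, plus strand: ttcccaacacGCATGCGCaatatcgcat
CTCF near Plagl1, motif at chr10:13018655-13018666, plus strand: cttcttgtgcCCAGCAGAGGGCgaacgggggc

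The libraries differed in the step of their densities, and the promoters of muscle genes were accessible. Peak densities were whole multiples of 0.00675 in replicate 1 and of 0.00333 in replicate 2 (values under 1, tolerance 0.1 step), a ratio of 2.03, and the files do not give the number of reads. Replicate 2 had 335055 footprints and replicate 1 had 210189. A promoter peak, defined as a peak that touches the 500 bp on either side of a start, was found in both libraries at 11 of 12 skeletal muscle markers (Tnnt3 had 1 in replicate 1 alone) and 5 of 5 fibroblast markers. The same was seen at 3 of 4 endothelial markers, all but Pecam1, and at 1 of 4 neuron markers, all but Neurod1, Elavl3 and Snap25. Over all protein-coding genes the share with overlapping promoter peaks in both libraries was 64.8%, and the few markers were not tested against it. No macrophage marker (Ptprc, Adgre1, Csf1r, Aif1) and no hepatocyte marker (Alb, Ttr, Apoa1, Ahsg) had a promoter peak in either library.

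Of the 10 imprinted genes, 9 had overlapping promoter peaks in both libraries, and Ndn had none in either library at its GENCODE start. Over all 21951 protein-coding genes this share was 64.8%, and a promoter peak was present at 66.3% of them in replicate 1 and 68.1% in replicate 2. The share among the 10 genes is not set against this background with a test. The 10 genes have more annotated starts than most, with a median of 9 against 3 for all protein-coding genes, and a gene with more starts has more chances of a promoter peak. Taken start by start, 52 of the 76 distinct starts had overlapping promoter peaks in both libraries, against 51.6% of the 93526 starts of all protein-coding genes. Many of the 76 starts lie close together and share a peak. With starts at most 1 kb apart joined, 17 of 38 groups had such peaks, and the starts of all genes were not joined in this way.

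The strongest promoter peaks had ranks close to the median of all accessible promoters, with Snrpn far below the rest. Strength is given as the rank of a peak's density, the percent of peaks in the same library with a density no higher. Each gene is given its highest rank over all its starts, so a gene with more starts has more chances of a high rank. Over the 9 genes the median rank was 89.4 in replicate 1 and 90.6 in replicate 2, and over all protein-coding genes with a promoter peak it was 90.9 and 92.6. The order of mean ranks (± SD, n = 2 libraries) was Gnas at 94.1 ± 1.32, Mest at 92.1 ± 0.572, Peg10 and Sgce at 90.5 ± 1.49 through 1 peak they share, Plagl1 at 90.5 ± 0.250, Peg3 at 90.1 ± 0.534, Grb10 at 88.4 ± 2.25, Impact at 87.1 ± 2.88 and Snrpn at 55.1 ± 7.57. The gaps from Gnas to Mest, from Mest to Peg10 and from Impact to Snrpn were larger than the SDs of both neighbours, and the other gaps between neighbours were not.

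**Figure D1:**
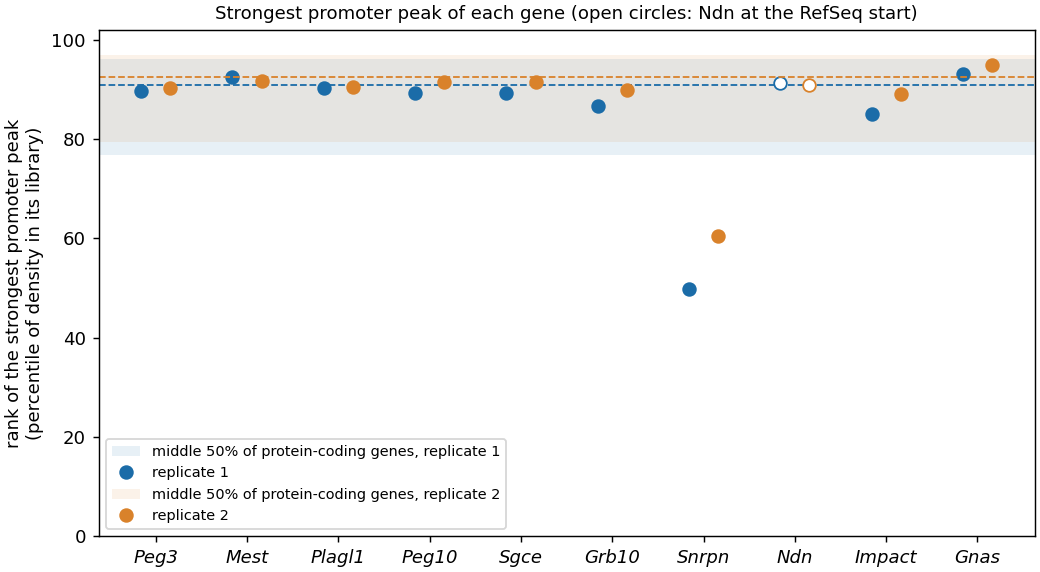
Rank of the strongest promoter peak of each gene (percentile of density within the library, y axis) in replicate 1 and replicate 2, with shaded bands for the middle 50% of protein-coding genes that have a promoter peak and dashed lines at their medians. Snrpn, at 49.7 and 60.4, is the gene below both bands, and the open circles show the Ndn peak at the RefSeq start, at 91.4 and 90.9.

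Within a gene the accessible starts were mostly the CpG-rich ones, and these were often not the most upstream. Joining starts at most 1 kb apart gave 38 groups of starts, of which 17 had a promoter peak in both libraries. The observed over expected CpG ratio had a median of 0.688 (range 0.242 to 1.06) in those 17 groups and 0.249 (range 0.0781 to 0.448) in the 21 groups without. All protein-coding starts split in a similar way, with medians of 0.724 at the 48231 starts with a peak in both libraries and 0.224 at those without. The most upstream group had a promoter peak in both libraries in 5 of the 10 genes, Peg3, Peg10, Sgce, Impact and Gnas. In Mest, Plagl1, Grb10 and Snrpn the peak lay at a start further in. The share for the most upstream group was not counted over all protein-coding genes, so it describes these 10 genes and sets them apart from no others.

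**Figure D2:**
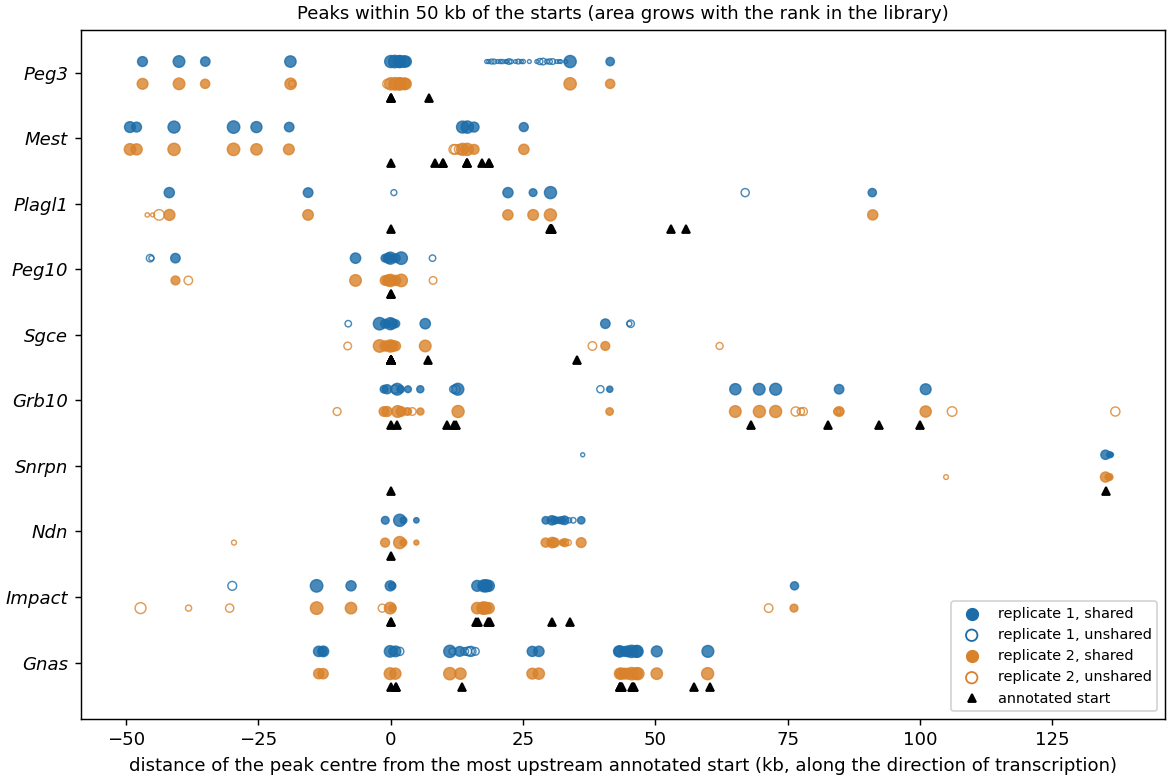
Peaks within 50 kb of the annotated starts of each gene, by distance of the peak centre from the most upstream start in kb (x axis), with replicate 1 above replicate 2 in each row, filled circles for peaks that overlap a peak of the other library and triangles for annotated starts. The row of small open circles in Peg3 marks 26 weak peaks seen in replicate 1 alone, and the promoter peaks of Plagl1 and Snrpn sit 30206.5 and 135068 bp from the most upstream start.

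Peg3 encodes a zinc finger protein and lies on the minus strand at chr7:6703892-6730431, head to head with Usp29, whose nearest start lies 146 bp away. Its promoter peak had a density of 3.98 in replicate 1 and 2.31 in replicate 2. The strongest shared peak of the gene lay in the first intron and exceeded the peak at the start in both libraries. It was centred 780.5 bp inside the most upstream start, with densities of 7.20 and 5.23 and a rank of 96.7 ± 1.31. The other peaks of this intron lay below the start peak in replicate 1, and some above and some below it in replicate 2. Further shared peaks in the intron included ones that ranked 89.8 ± 2.19 (density 3.55 and 2.50), 83.2 ± 2.25 (2.37 and 1.56) and 72.6 ± 2.87 (1.49 and 0.973). In each library a second peak overlapped the first of these, with a density of 3.04 in replicate 1 and 2.38 in replicate 2. The peak at chr7:6728441-6728960, which ranked 89.8, is also the strongest distal peak of the gene, where distal means that no annotated start of any gene lies within 1 kb of the centre.

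The 12 YY1 matches shown above lay from 838.5 to 3126.5 bp inside the first start, all 12 on the plus strand, and 11 of them read AAGATGGC. Of these, 8 lay in a peak of both libraries and 5 touched a footprint in both, including 1 that lay in a peak of replicate 2 alone. Across all 75098 paired peaks of the series, 3.60% held the YY1 letters at all, and 10 peaks held at least 3 matches, of which 2 were in this intron. In all paired peaks 31.1% of YY1 matches touched a footprint in both libraries. The array was picked out after the matches had been seen, and a match to these letters is a description and not a bound site.

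Downstream of this, the libraries parted. Replicate 1 had 26 peaks between positions 6697292 and 6712380, over the last exon of Peg3 and on to the start of Zim1, none of which overlapped a peak of replicate 2. Their densities ran from 0.0743 to 0.466 and their ranks from 0.112 to 20.8, so all were weak, although 21 of the 26 were also in the shorter and stricter peak list. The FDR list of replicate 1, which gives bases with a false discovery rate below 0.05, covered 69.1% of the last exon, and that of replicate 2 covered none of it. These peaks lower the share of replicate 1 peaks near the 10 genes that overlapped a replicate 2 peak. It was 65.5%, or 91 of 139, against 79.6% of all replicate 1 peaks, and 80.5% without the 26. For replicate 2 it was 74.2% against 60.8%. What set the 26 peaks apart was not tested, and they moved with the library alone. The Zim1 start at the far end, another zinc finger gene, was open in both, with densities of 4.62 and 3.17.

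**Figure D3:**
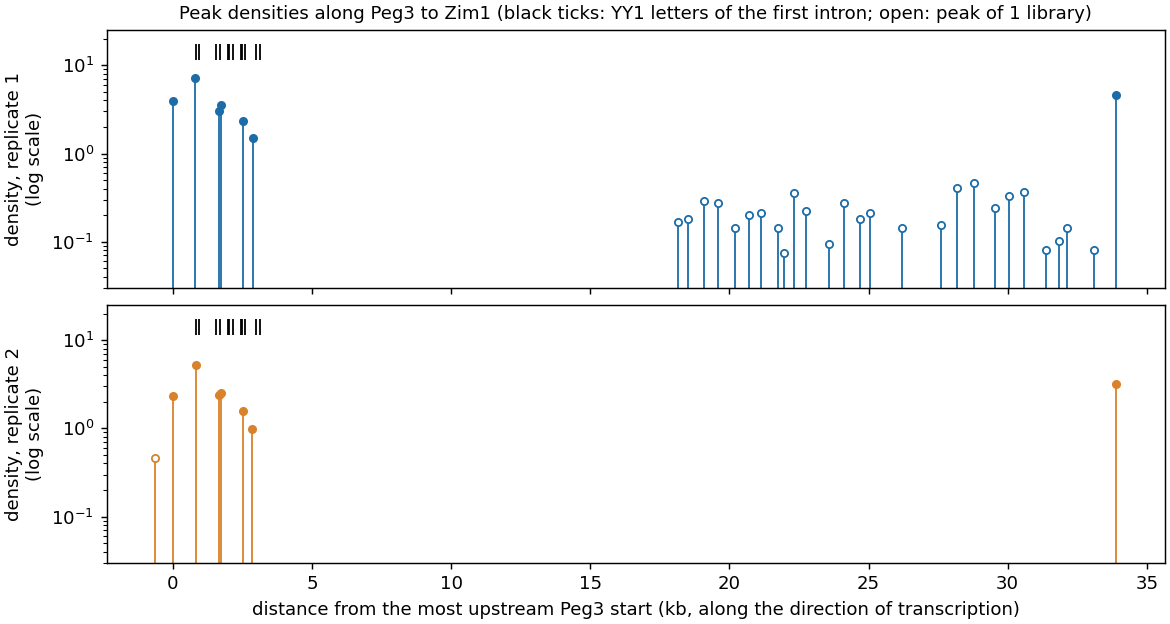
Peak density (y axis, log scale) by distance from the most upstream Peg3 start in kb (x axis) for each library, with filled circles for shared peaks and black ticks for the 12 YY1 matches of the first intron. The intron peaks reach 7.20 and 5.23 in both panels, while the open circles of the 26 weak peaks appear in the panel of replicate 1 alone.

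Plagl1 encodes a zinc finger regulator of growth. Its promoter peak, chr10:13090601-13090820 in replicate 1, lay over the group of 8 starts 30187 bp inside the most upstream start, with densities of 4.18 and 2.35, and held 5 footprints in replicate 1 and 7 in replicate 2. No peak of either library touched the 500 bp on either side of the most upstream start. The other shared peaks were weak, and the strongest distal one, 41823.5 bp before the gene, had densities of 1.13 and 0.900 and ranked 66.9 ± 7.71. That peak held the Plagl1 CTCF match shown above, which touched a footprint in both libraries.

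Grb10 encodes an adaptor protein that binds the insulin receptor and restrains growth. Its main RefSeq promoter, the CpG-rich sequence printed above, had densities of 2.73 and 1.52 and a rank of 84.3 ± 0.158, and 26 of its 250 bases lay in a footprint of both libraries. A second CpG-rich group of starts further inside the gene, 11951 bp from the first, ranked higher in both libraries, with densities of 3.22 and 2.22 and a rank of 88.4 ± 2.25. The peak of this group was centred 343.5 bp past the nearest start in replicate 1 and 383.5 bp in replicate 2. With 200 bp on either side of a start it was not counted, and the highest Grb10 rank was then 84.3. Grb10 had 9 shared distal peaks within 50 kb of its starts, the most of the 10 genes. The strongest, at chr11:11965841-11966040, lay 72742.5 bp inside the first start and had densities of 3.21 and 2.13 (rank 88.1 ± 1.90).

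Gnas encodes the stimulatory G protein subunit Gsα and, from other first exons, the secretory protein NESP55, the extra-large form XLαs and the untranslated exon 1A transcript. NESP55 is known to be maternal, XLαs, exon 1A and the antisense transcript Nespas to be paternal, and Gsα to come from both copies in most tissues. The Gsα start was the most accessible of the group, with densities of 5.50 in replicate 1 and 3.72 in replicate 2 (rank 94.1 ± 1.32). The Nespas start followed with 4.97 and 3.02 (92.7 ± 0.706). Both ranked above the NESP55, exon 1A and XLαs starts in each library.

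The NESP55 start, whose upstream sequence is shown above, had densities of 2.17 and 1.56 and a rank of 82.4 ± 3.42. The exon 1A starts had 1.86 and 0.976 (75.6 ± 1.28). At the XLαs start the shared peak lay upstream, with 0.999 and 1.15 (67.6 ± 16.1), and the density of replicate 2 was the higher there. Replicate 1 alone had 6 further peaks within 3 kb of the XLαs start, with densities from 0.493 to 1.05. The XLαs start had the widest spread between the libraries of the Gnas starts. A start near the end of the gene had a peak with 2.96 and 2.21 (87.7 ± 3.11), and its neighbour 57384 bp from the first start had none. The strongest distal peak, at chr2:174334509-174334700, ranked 75.5 ± 6.17. Nespas and the antisense gene Gm20721 overlap Gnas, and peaks carry no strand.

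**Figure D4:**
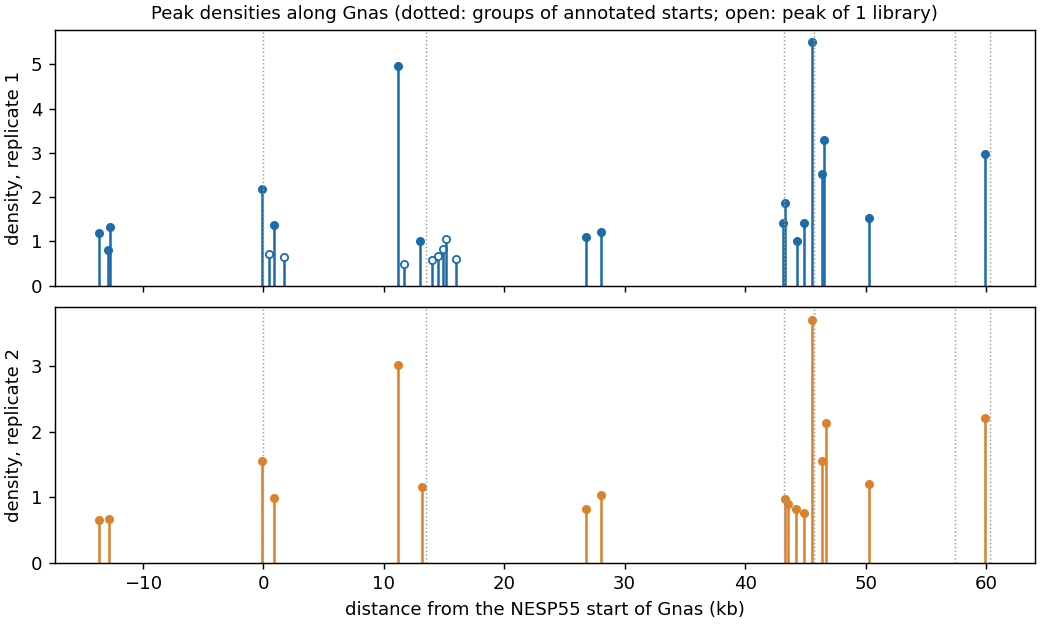
Peak density (y axis) by distance from the NESP55 start of Gnas in kb (x axis) in each library, with dotted lines at the 6 groups of annotated starts and open circles for peaks of 1 library. The tallest peaks stand at the Gsα start, at 5.50 and 3.72, and at the Nespas start, at 4.97 and 3.02.

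Mest encodes an enzyme-like protein of the hydrolase fold and is a marker of mesoderm. Its peak lay at the internal start printed above, 14503 bp inside the most upstream one, with densities of 5.10 and 2.59, and a second peak 929.5 bp before that start had 3.29 and 2.01 (rank 87.9 ± 1.15). The other 5 groups of Mest starts had no promoter peak in either library. The capitals of the Mest sequence, 26 bases shortly before the start, run over a TTTAAAA stretch, and both TGCCGC matches of the Mest peak lay outside the footprints of either library. The strongest distal peak, at chr6:30682541-30682700, lay 40926.5 bp before the first start with densities of 3.65 and 2.80 (90.5 ± 2.76).

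Peg10, a gene derived from a retrotransposon, and Sgce, which encodes the membrane protein ε-sarcoglycan, are transcribed away from each other from starts 98 bp apart. A single peak over both starts had densities of 3.88 and 2.55. As in Peg3, the strongest peak lay inside the transcribed region. The peak at chr6:4749181-4749420, 1994.5 bp inside Peg10, had densities of 7.34 and 4.28 and ranked 96.1 ± 0.177, the strongest shared distal peak near any of the 10 genes. Sgce also had a peak near a start 7000 bp inside the gene, with densities of 1.20 and 1.36 (72.9 ± 13.3).

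Snrpn encodes a protein of the splicing machinery and has a promoter that overlaps the imprinting centre of the domain that also holds Ndn. It had the weakest promoter peak of the 9 genes with one at a GENCODE start. Its peak, chr7:60005061-60005240 in both libraries, had densities of 0.864 in replicate 1 and 0.640 in replicate 2 and lay over a start it shares with Snurf. It held 0 footprints in replicate 1 and 3 in replicate 2. The Snrpn sequence printed above has no capitals and a GC content of 36.8%, against 62.4% for Mest and 81.2% for Grb10. Most of that sequence lies outside the peak, with 41 of its bases in the peak of each library. The Snrpn peak itself had a GC content of 60.6% and an observed over expected CpG ratio of 0.755. In replicate 1 the Mest promoter peak had 67% and 0.726, and the peak at the main Grb10 promoter had 76.1% and 1.04. The most upstream Snrpn start, 135108 bp away, had no peak in either library, nor had the 4 RefSeq starts between and beyond that are not in the other annotation. No shared distal peak lay within 50 kb.

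Ndn encodes necdin, a protein that restrains cell division. At the GENCODE start it was not counted above, but a shared peak at chr7:62348181-62348380 had densities of 4.60 and 2.40 and a rank of 91.1 ± 0.391, and its centre lay 3.5 bp from the RefSeq start of Ndn and 1711.5 bp inside the GENCODE start. With RefSeq starts, an alternative chosen after seeing the data, all 10 genes had overlapping promoter peaks in both libraries. The NRF1 match printed above touched a footprint in both libraries. In all paired peaks of the series 1.60% held these letters (GCATGCGC, searched on both strands, where matches on opposite strands can overlap), and 71.6% of the matches touched a footprint in both libraries. Around the neighbouring gene Magel2 the peaks were many and weak, with 8 in replicate 1 and 5 in replicate 2 over the transcript and a highest density of 0.844 and 0.720. The 2 CTCF matches near Ndn lie on either side of Magel2, both in footprints of both libraries, as were 94.3% of CTCF matches in all paired peaks.

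Impact encodes a regulator of translation. Its most upstream starts had a peak with densities of 1.10 and 1.37 (rank 71.3 ± 15.7) and the start 16071 bp further in had 1.49 and 1.19 (75.0 ± 6.37). The next group of starts, 18446 bp from the first, had 2.87 and 2.07 (87.1 ± 2.88), and just before it lay a peak with 3.71 and 2.03 (88.8 ± 0.0611). The strongest peak of the 18446 bp group and the peak just before it ranked above that at the most upstream start in both libraries, while the peak at the 16071 bp start ranked above it in replicate 1 alone. The strongest distal peak, 7481.5 bp before the gene, ranked 70.5 ± 13.9, and the strongest peak in the window belonged to the start of the neighbour Osbpl1a (97.3 ± 1.19).

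A set of 10 motifs was searched in the promoter peaks of these genes. Across 26 shared promoter peaks of replicate 1, GC boxes (GGGCGG, the letters bound by Sp1) were in 42.3% against 60.1% of the 23213 shared promoter peaks of all protein-coding genes, and the ZFP57 letters in 38.5% against 21.7%. The widths were alike, with medians of 210 and 220 bp. Several of the 26 peaks overlap each other or serve a pair of genes, so they are not independent. Of the 34 distinct motif matches in them, 7 touched a footprint in both libraries: 5 GC boxes, 1 E-box (CAGCTG) and 1 ZFP57 match, in the peak between Peg10 and Sgce. These came from 19 GC box, 1 E-box and 11 ZFP57 matches. In all paired peaks of the series, 39.96% of GC box, 16.3% of E-box and 16.7% of ZFP57 matches touched a footprint in both libraries. The matches in the promoter peaks are too few to be set against these shares. In these 26 peaks, which leave out the Ndn peak at the RefSeq start and its NRF1 match, no match was found for the YY1, NRF1, CRE (TGACGTCA), ETS (CCGGAAGT) and CTCF letters. Over the 23213 promoter peaks these letters were in 5.94%, 3.60%, 2.30%, 4.69% and 1.37%, so their absence from 26 peaks says little. AP-1 (TGANTCA) and TEAD (CATTCC) letters were each in 2 of the 26 peaks, none in a footprint of both libraries. Their shares over the 23213 promoter peaks were 2.89% and 8.14%. The 2 peaks with AP-1 letters overlap at Impact and hold the same match.

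By the GENCODE starts, 46 shared distal peaks lay within 50 kb of the starts, from 0 for Snrpn to 9 for Grb10. The 46 include the Ndn peak that lies at the RefSeq start of that gene. The median over protein-coding genes was 2 per gene. Genes with starts far apart have wider windows. Their mean ranks ran from 9.63 to 96.1, with a median in replicate 1 of 57.7 against 51.1 for all 45757 shared distal peaks. Footprints overlapped between the libraries in 34 of the 46. Footprints per peak near the 10 genes averaged 1.94 in replicate 1 and 2.90 in replicate 2, against 2.02 and 2.41 for all peaks of those libraries.

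The densities of replicate 1 exceeded those of replicate 2 at paired peaks by a median ratio of 1.39 over 91 pairs near the 10 genes, against 1.41 over all pairs. By gene the median ratio ran from 1.12 at Peg10 and Sgce to 1.49 at Peg3, and those of the other 8 genes lay between the quartiles of all pairs, 1.20 and 1.62. Replicate 2 had the higher density at 8 of the 91 pairs.

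**Figure D5:**
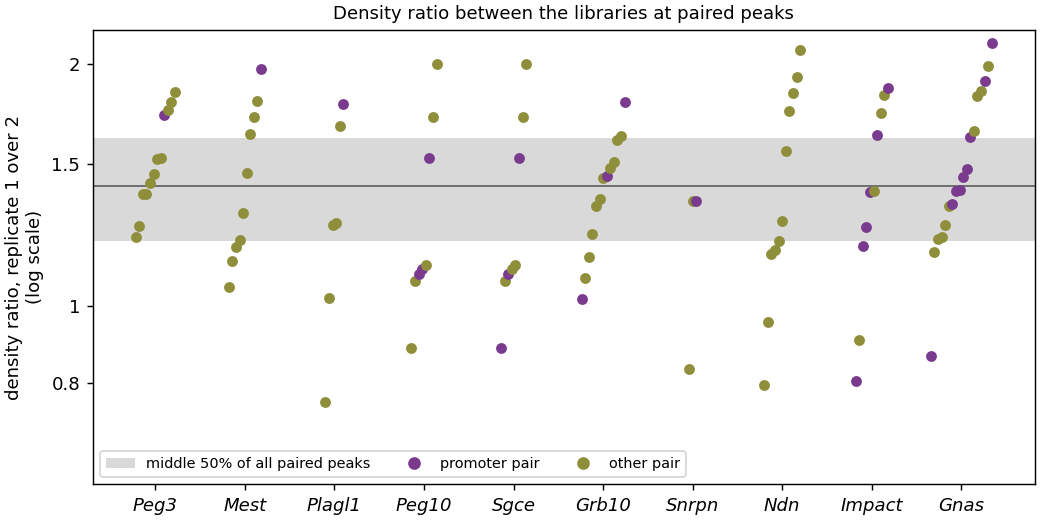
Ratio of the density of replicate 1 to that of replicate 2 (y axis, log scale) at each paired peak near the 10 genes, with promoter pairs and other pairs in separate colours, the grey band for the middle 50% of all paired peaks and a line at their median of 1.41. The points run from 0.759 in Plagl1 to 2.12 in Gnas.

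Of 51 other imprinted genes and domain neighbours, 49 were matched by symbol (all but Copg2os2 and Hymai), and 43 of these had overlapping promoter peaks in both libraries. Of the 43 protein-coding ones, 38 had them, against the 64.8% of all protein-coding genes. Commd1 (99.5 ± 0.0809), Inpp5f (99.4 ± 0.419) and Ube3a (99.3 ± 0.114) had the highest mean ranks. The lowest were Nap1l5 (23.5 ± 7.68) and, through 1 peak they share, Zim3 and Zfp264 (11.5 ± 2.30), both of the Peg3 domain. Gpr1, Kcnk9 and Slc22a2 had no promoter peak in either library. The median mean rank of the 43 was 83.1, below that of 8 of the 9 genes above and above that of Snrpn. The sets are not separate, because the peak of Usp29 is that of Peg3 and the peak of Snurf is that of Snrpn.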

How the data were processed

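The values are interval lists that the authors made from each of 2 DNase-seq libraries by itself, on build mm10 per the labels. Aligner and caller, with their versions, were not given in the sources used here. The deposited peak lists carry a cut density per peak, read here as a signal that is comparable within a library. Each library has a longer and a shorter list, and the longer was used. The deposited FDR lists hold a false discovery rate, read as a q-value, for stretches below 0.05. The deposited footprints all carry the constant 0.01 and so could not be ranked. Density is the authors' own value and depth in reads is not known, so no counting interval is given.

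Peaks were joined to the GENCODE M21 transcript starts on GRCm38.p6 with Python 3.11.15, numpy 2.4.6 and pysam 0.24.0. A promoter peak touched the 500 bp on either side of a start, sharing needed an overlap of 1 bp or more between the lists of both libraries, and peaks counted as distal when no start of any gene lay within 1 kb of the centre. A footprint or a motif match counted where it overlapped by at least 1 bp. Sequence came from the C57BL/6J reference, so motif letters gained or lost on the CAST copy were missed. The promoter overlap, sharing and motif steps were tested on simulated data, and the rank step was not. No comparison between groups was possible, and no test was run. The genes, the lists and the rule for naming genes (all 10 genes, their strongest distal peaks, the 3 highest and 3 lowest other imprinted genes, and listed genes without a peak) were chosen with earlier results of these data known. The result of 1 list of cell type markers is not reported here.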

Additional observations from a re-analysis of the deposited data

How the results depend on the processing

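Over 74 alternative values of the summary results, 60 stayed close to the reported value and 14 did not. Close means within 1.5 times or, for the median promoter rank, within the SD between the libraries. The counts of 9 of 10 genes, 52 of 76 starts and 43 of 49 other imprinted genes could not rise by more than 1.5 times. For these counts only a fall could have been seen, so the count of 60 is a weak measure of stability. With the most upstream start of each gene alone, the count of genes accessible in both libraries was 5 of 10 instead of 9, and with the strongest 50% of peaks Snrpn lost its peak. The median promoter rank of 90.5 was 83.7 in the shorter peak lists, which hold fewer weak peaks to rank against. Shared peaks near the starts numbered 60 among the strongest 50% of peaks instead of 91. The 46 shared distal peaks became 27 with the shorter lists, 28 with the strongest 50% and 77 with a window of 100 kb, and the mean of 290.5 distinct footprints per library became 443 with that window. The 7 motif matches in footprints of both libraries became 13 with 1000 bp on either side of a start and 2 when a match had to lie wholly inside a footprint.

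Leaving out 1 library leaves all peaks of the other, shared or not. The count of peaks then ran from 120 to 139, that of distal peaks from 70 to 84, that of motif matches in footprints from 8 to 21, and the median promoter rank from 89.4 to 90.6. Of 85 alternative ranks of single genes, 69 stayed within the SD between the libraries and 16 did not. Many of the 69 could not have shown a shift. With 2 libraries, the mean rank of a gene and its rank in 1 library differ by less than the SD. Ranks with equal numbers of peaks, or with the strongest peaks alone, were identical to the reported ones for each gene that kept its peak. The count of 69 therefore says little about how stable the ranks are. With those 1000 bp the Peg3 rank took in the intron peak and rose from 90.1 to 96.7. No paired analysis was possible because there was 1 group. The limits are the 2 libraries of unequal and unknown depth, footprints without a strength, and lists without alleles.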
